A study of Mus musculus with 2 samples.

Results

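The genes described here are 36 genes of the antiviral interferon response in mouse small intestine: 21 antiviral effectors, 5 sensors of foreign nucleic acid or their cofactors, 4 transcription factors, the feedback inhibitor Usp18 and 5 subunits of interferon receptors. They were chosen by name, with interferon-induced GTPases of the immunity-related and guanylate-binding families and MHC genes left out, and all 36 were found among the 27275 genes of the table. RNA came from proximal small intestine of naive mice of 2 genotypes, with 1 library each. In the KO library the genotype was Spib fl/fl with Villin-Cre, so the floxed gene for the ETS transcription factor SPI-B is removed where the villin promoter is active, which is the intestinal epithelium and not immune cells. In the WT library the genotype label reads Spib+Villin-Cre, and both genotypes therefore name the Cre transgene. The sources used here do not give age, sex, strain, the number of mice behind a library or any pooling. The implied depth was 17658566 reads for the KO library and 17425640 reads for the WT library. With no replicate, no test of genotype was possible, and every difference below is one between these libraries.

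Type I interferons (the alpha and beta interferons) bind a receptor made of IFNAR1 and IFNAR2, and type III interferons (interferon lambda) bind IFNLR1 paired with IL10RB. Both activate the kinases JAK1 and TYK2 and assemble a complex with STAT2 and IRF9 that binds the interferon-stimulated response element (ISRE) in the promoters of antiviral genes. In mouse gut, epithelial cells respond mainly to type III interferon and immune cells mainly to type I interferon. Interferon gamma, the type II interferon, uses IFNGR1 and IFNGR2 and acts through another element, the gamma-activated site (GAS). Some interferon-stimulated genes are expressed in the gut without infection.

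Most interferon-stimulated genes were moderately lower in the KO library. The values are FPKM, read numbers scaled to gene length and library size. Log2 ratios are log2((KO FPKM + 1) / (WT FPKM + 1)), a scale that understates the difference of low genes. Compared were the genes that reached 1 FPKM in either library, which were 35 of the 36 genes, all but Ifi44, and 13479 genes in all. The median log2 ratio of the 35 genes was -0.29, beside -0.05 over all genes compared. It was below 0 for 27 of the 35, where 58.7% of all genes compared lay below 0. Among the 27, Oas2 and Mx2 reached 1 FPKM in the WT library only, so the filter kept them through the library where they were higher. At least 1.5-fold lower on this scale were 6 of the 35, Zbp1, Ifit1bl1, Isg15, Ifit1, Mx1 and Oasl2, where 5.69% of all genes were. That count of 6 depended on pseudocount and scaling and was 11 with a pseudocount of 0.1 FPKM, 2 with one of 5 FPKM and 12 with both libraries rescaled to TPM. None of the 35 was 1.5-fold higher, against 3.56% of all genes. At least 2-fold lower were 2 of the 35, Zbp1 and Ifit1bl1, against 2.51% of all genes, and with a pseudocount of 5 FPKM 0 of the 35 were. None was 2-fold higher, against 1.61%. Among the 5067 compared genes whose mean level lay within the quartiles of these genes, 3.87 to 15.6 FPKM, 3.89% were 1.5-fold lower and their median was -0.05.

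**Figure D1:**
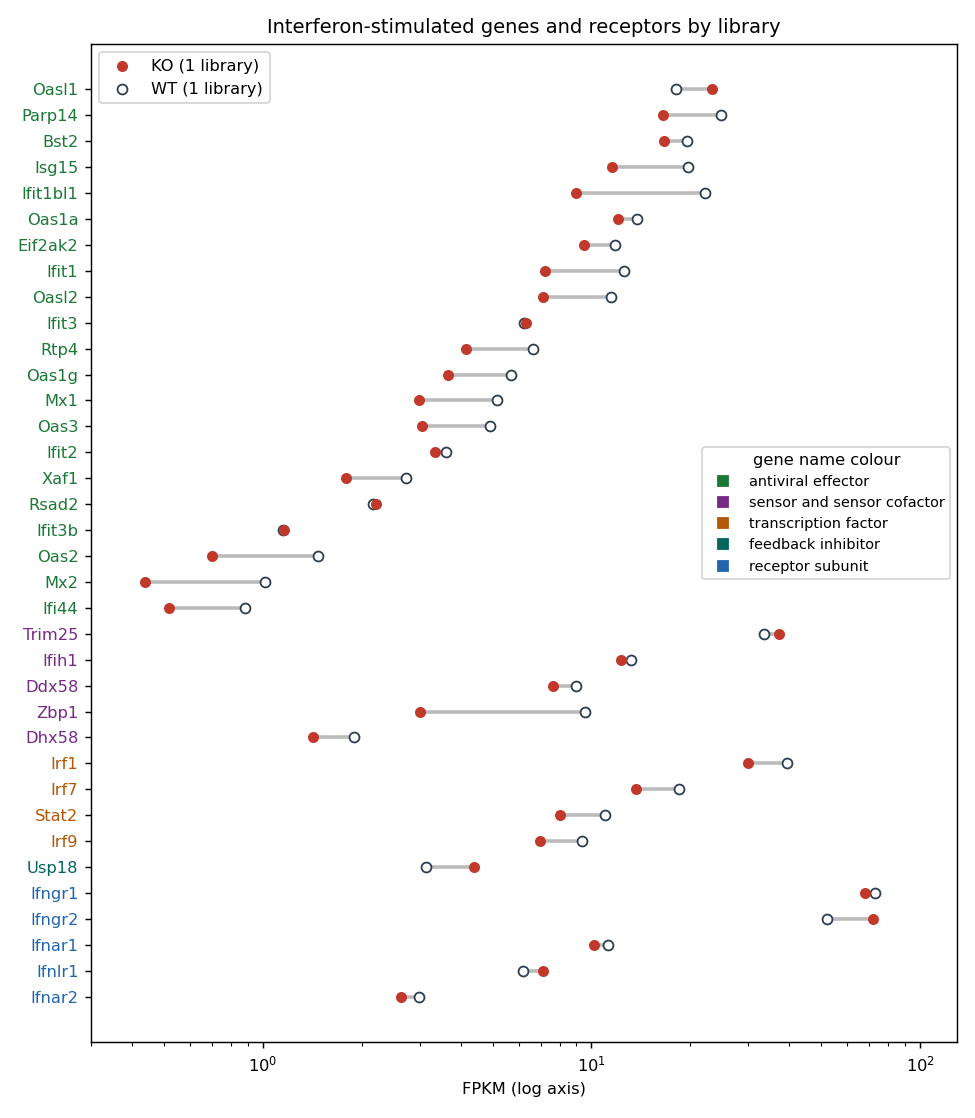
FPKM (log axis) of each of the 36 genes in the KO library (filled) and the WT library (open), ordered by role and level. Most filled points lie left of the open ones, with the widest gaps at Zbp1 and Ifit1bl1, while Oasl1, Usp18, Ifngr2, Ifnlr1 and Trim25 lie the other way and Ifit3, Ifit3b and Rsad2 nearly coincide.

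The receptor genes lay closer to level. The 5 receptor subunits had a median log2 ratio of -0.10, beside -0.05 over all genes compared. Of the 5, 3 lay below 0 and 2 above 0, near the 58.7% of all genes that lay below 0. None was past 1.5-fold, where 5.69% of all genes were lower and 3.56% higher by as much. Ifngr2, which encodes the signalling chain of the interferon gamma receptor, had 72.0 FPKM in the KO library and 52.0 FPKM in the WT library, 1.38-fold higher with an exact 95% counting interval of 1.32 to 1.45. Such intervals come from recovered read numbers, count every read as if drawn independently and cover counting error only, not differences between mice. Ifngr1, the ligand-binding chain, had 68.1 FPKM in the KO library and 73.1 FPKM in the WT library. These chains were the most abundant of the 36 genes. Ifnlr1, the type III receptor chain, had 7.11 FPKM in the KO library and 6.20 FPKM in the WT library, 1.15-fold higher (1.01 to 1.30). Its partner Il10rb, which other cytokine receptors also use, had 14.4 FPKM in the KO library and 11.4 FPKM in the WT library. Both chains of the type III receptor were thus slightly higher in the KO library. Of the type I receptor, Ifnar1 had 10.2 FPKM in the KO library and 11.2 FPKM in the WT library, and Ifnar2 had 2.64 FPKM in the KO library and 2.98 FPKM in the WT library. Ifnar2 lay below Ifnar1 in both libraries. Ifnar2, Il10rb, Ifnar1 and Ifngr2 are neighbours within 193 kb of chromosome 16 (91372783 to 91565623, mm10). Within that cluster Il10rb and Ifngr2 were higher in the KO library. The interval of the ratio ran from 0.835 to 0.989 for Ifnar1, and for Ifnar2 it held 1, from 0.707 to 1.10.

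Interferon transcripts could hardly be compared. Of 16 interferon ligand genes on the pathway list, 14 were not analysed here. Ifnk, which encodes interferon kappa, had 3 reads in each library, and Ifnl3, which encodes a type III interferon, was listed at 0 in both, so no fold is given for either. Of the receptor-proximal genes beside Il10rb, the kinase Jak1 had 24.2 FPKM in the KO library and 23.8 FPKM in the WT library. Jak2, a kinase of the interferon gamma receptor and the most abundant gene of that list, had 54.2 FPKM in the KO library and 45.1 FPKM in the WT library. Tyk2 had 6.85 FPKM in the KO library and 8.08 FPKM in the WT library. Stat3, of the same list, had 16.0 FPKM in the KO library and 23.3 FPKM in the WT library, 1.45-fold lower (1.38 to 1.53). The median log2 ratio of that list was -0.09.

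The transcription factors were lower together by a small amount. Stat2, the subunit that brings the activation domain to the ISRE-binding complex, had 8.04 FPKM in the KO library and 11.0 FPKM in the WT library, 1.37-fold lower (1.25 to 1.5). Irf9, its DNA-binding partner, had 6.99 FPKM in the KO library and 9.33 FPKM in the WT library. Irf7, the amplifier of type I interferon production, had 13.7 FPKM in the KO library and 18.5 FPKM in the WT library, 1.35-fold lower (1.24 to 1.48). Irf1, a factor induced mainly by interferon gamma, had 29.9 FPKM in the KO library and 39.5 FPKM in the WT library, 1.32-fold lower (1.25 to 1.40). The log2 ratios of the 4 factors spanned only -0.41 to -0.37, the narrowest range of any role with more than 1 gene, and none was past 1.5-fold.

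Of the antiviral effectors, 16 of 20 compared lay below 0 and 5 were 1.5-fold lower, where 58.7% and 5.69% of all genes were. Their median log2 ratio was -0.51. Ifit proteins bind viral RNA ends and block translation. Ifit1bl1, an Ifit1-like gene, had 8.99 FPKM in the KO library and 22.1 FPKM in the WT library, 2.46-fold lower (2.17 to 2.79). Ifit1 had 7.23 FPKM in the KO library and 12.5 FPKM in the WT library, 1.73-fold lower (1.51 to 1.99). Other genes of the same cluster did not differ in this way. Ifit3, the partner that stabilises IFIT1 complexes in human cells, had 6.33 FPKM in the KO library and 6.25 FPKM in the WT library. Its near copy Ifit3b had 1.16 FPKM in the KO library and 1.15 FPKM in the WT library. Ifit2 had 3.35 FPKM in the KO library and 3.61 FPKM in the WT library. The counting interval of the ratio held 1 for these 3 genes, and for Ifit3b, with 41 reads in the KO library and 40 in the WT library, it ran from 0.638 to 1.6. Ifit1bl2, the most abundant gene of the cluster and not among the 36, went the other way, with 50.003 FPKM in the KO library and 40.4 FPKM in the WT library, 1.24-fold higher (1.17 to 1.31). The 6 Ifit genes lie within 99.3 kb of chromosome 19 (34550694 to 34650009) and summed to 77.1 FPKM in the KO library and 86.1 FPKM in the WT library.

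Near-identical copies limit some of these values. Of the 50-base stretches in annotated transcripts of Ifit3, 51.2% also occur in Ifit3b, so reads may have been divided between them, and their sum was 7.49 FPKM in the KO library and 7.40 FPKM in the WT library. For Ifit1 and Ifit1bl1 the shares found in another gene were only 7.13% and 6.45%, almost all in Ifit1bl2. Ifit1 and Ifit1bl2 are read from opposite strands, and 127 bases separate their annotated starts, so the lower Ifit1 and the higher Ifit1bl2 stand on either side of the same short interval. Annotated exons of 10 of the 36 genes overlap those of another gene, by 13.9% of their length for Rtp4, 9.46% for Ifnar2 and at most 4.44%, the value of Usp18, for the rest, and the strand setting of the counting is unknown.

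The ubiquitin-like modifier Isg15, which is conjugated to proteins during the interferon response, had 11.5 FPKM in the KO library and 19.7 FPKM in the WT library, 1.71-fold lower (1.40 to 2.10). Usp18, the protease that removes ISG15 and restrains the type I receptor, went the other way, with 4.40 FPKM in the KO library and 3.13 FPKM in the WT library, 1.41-fold higher (1.14 to 1.74). All 8 genes of the list of further negative regulators and ISG15 pathway enzymes lay below 0, where 58.7% of all genes did. Their median was -0.28, and 6 of the 8 lay within 1.5-fold. Among the 8, Herc6 reached 1 FPKM in the WT library only, so the filter kept it through the library where it was higher. On this list, the ISG15-activating enzyme Uba7 had 7.42 FPKM in the KO library and 11.4 FPKM in the WT library. Ube2l6, another enzyme of the list, had 19.9 FPKM in the KO library and 23.1 FPKM in the WT library, 1.16-fold lower (1.04 to 1.28). Herc6 had 0.829 FPKM in the KO library and 1.36 FPKM in the WT library, 1.64-fold lower (1.32 to 2.05). With the pseudocount its log2 ratio was -0.37. Isg15, Uba7 and, at a low level, Herc6 were thus lower and Usp18 was higher, while Ube2l6 was closer to level.

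Oligoadenylate synthetases sense double-stranded RNA and activate RNase L. Oas1g had 3.65 FPKM in the KO library and 5.69 FPKM in the WT library, 1.56-fold lower (1.26 to 1.92). Oas1a had 12.1 FPKM in the KO library and 13.7 FPKM in the WT library, with an interval of the ratio from 0.767 to 1.01. Of Oas1a, 57.6% of the 50-base stretches occur in Oas1g, so the division between them is uncertain, and all 8 Oas1 genes measured, among them Oas1b at 1.17 FPKM in the KO library and 1.93 FPKM in the WT library, summed to 18.4 FPKM in the KO library and 22.6 FPKM in the WT library. Oas2 and Oas3 have no such copy. Oas3 had 3.04 FPKM in the KO library and 4.91 FPKM in the WT library, 1.61-fold lower (1.42 to 1.84). Oas2 had 0.700 FPKM in the KO library and 1.47 FPKM in the WT library, 2.10-fold lower (1.51 to 2.95), from 55 reads in the KO library and 114 in the WT library. With the pseudocount these low genes stayed within 1.5-fold, at -0.52 for Oas1g, -0.55 for Oas3 and -0.54 for Oas2. The related genes Oasl1 and Oasl2, 11.0 kb apart on chromosome 5, differed in direction. Oasl1, an inhibitor of IRF7 translation in mouse cells, had 23.3 FPKM in the KO library and 18.1 FPKM in the WT library, 1.29-fold higher (1.17 to 1.41). Oasl2 had 7.14 FPKM in the KO library and 11.5 FPKM in the WT library, 1.61-fold lower (1.47 to 1.76). Their sum was nearly level, at 30.5 FPKM in the KO library and 29.6 FPKM in the WT library.

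Mx proteins are dynamin-like GTPases that trap viral nucleocapsids. Mx1 had 2.98 FPKM in the KO library and 5.15 FPKM in the WT library, 1.73-fold lower (1.44 to 2.07). Mx2 had 0.439 FPKM in the KO library and 1.02 FPKM in the WT library, 2.32-fold lower (1.46 to 3.75), from 28 reads in the KO library and 64 in the WT library. Both Mx genes were lower, at low levels. Parp14, an ADP-ribosyltransferase and the most abundant effector of the WT library, had 16.6 FPKM in the KO library and 24.8 FPKM in the WT library, 1.5-fold lower (1.43 to 1.57), and lay just inside 1.5-fold with the pseudocount, at -0.56. Rtp4, a receptor chaperone with antiviral activity, had 4.15 FPKM in the KO library and 6.62 FPKM in the WT library, and 11.6% of its stretches are shared with an overlapping transcript. Xaf1, a promoter of apoptosis, had 1.79 FPKM in the KO library and 2.73 FPKM in the WT library. Ifi44 had 0.517 FPKM in the KO library and 0.880 FPKM in the WT library. Rtp4, Xaf1 and Ifi44 were all lower in the KO library, at low levels.

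Rsad2, which encodes viperin, an enzyme that makes a chain-terminating nucleotide, had 2.21 FPKM in the KO library and 2.16 FPKM in the WT library, with an interval of the ratio from 0.820 to 1.28. Cmpk2, a mitochondrial nucleotide kinase that lies 12.8 kb from Rsad2 on chromosome 12 and is read from the opposite strand, had 12.5 FPKM in both libraries. This divergent pair was level in both genes. Eif2ak2, the RNA-activated kinase PKR, had 9.51 FPKM in the KO library and 11.8 FPKM in the WT library, 1.24-fold lower (1.13 to 1.36). Bst2, the tether that holds budding virions and that plasma cells and plasmacytoid dendritic cells also express, had 16.6 FPKM in the KO library and 19.5 FPKM in the WT library, with an interval of the ratio from 0.720 to 1.01.

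Among sensors, Zbp1 stood apart. Zbp1, which recognises Z-form nucleic acid and can start necroptosis (chromosome 2, 173206612 to 173218923, minus strand), had 3.001 FPKM in the KO library and 9.56 FPKM in the WT library, from 187 reads in the KO library and 588 in the WT library, 3.19-fold lower (2.70 to 3.78). Its log2 ratio of -1.40 was the lowest of the 36 genes and ranked 188 from the lowest among the 13479 genes compared. No 50-base stretch of its transcripts occurs in another gene. The RNA helicases differed less. Ifih1, the sensor MDA5, had 12.3 FPKM in the KO library and 13.2 FPKM in the WT library. Ddx58, the sensor RIG-I, had 7.66 FPKM in the KO library and 8.99 FPKM in the WT library. Dhx58, the regulatory helicase LGP2, had 1.42 FPKM in the KO library and 1.89 FPKM in the WT library, with an interval of the ratio from 0.555 to 1.01. Trim25, a ubiquitin ligase of the RIG-I pathway, had 37.1 FPKM in the KO library and 33.5 FPKM in the WT library, 1.11-fold higher (1.06 to 1.16). The 3 helicases and Trim25 thus lay within 1.5-fold, and Zbp1 did not.

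**Figure D2:**
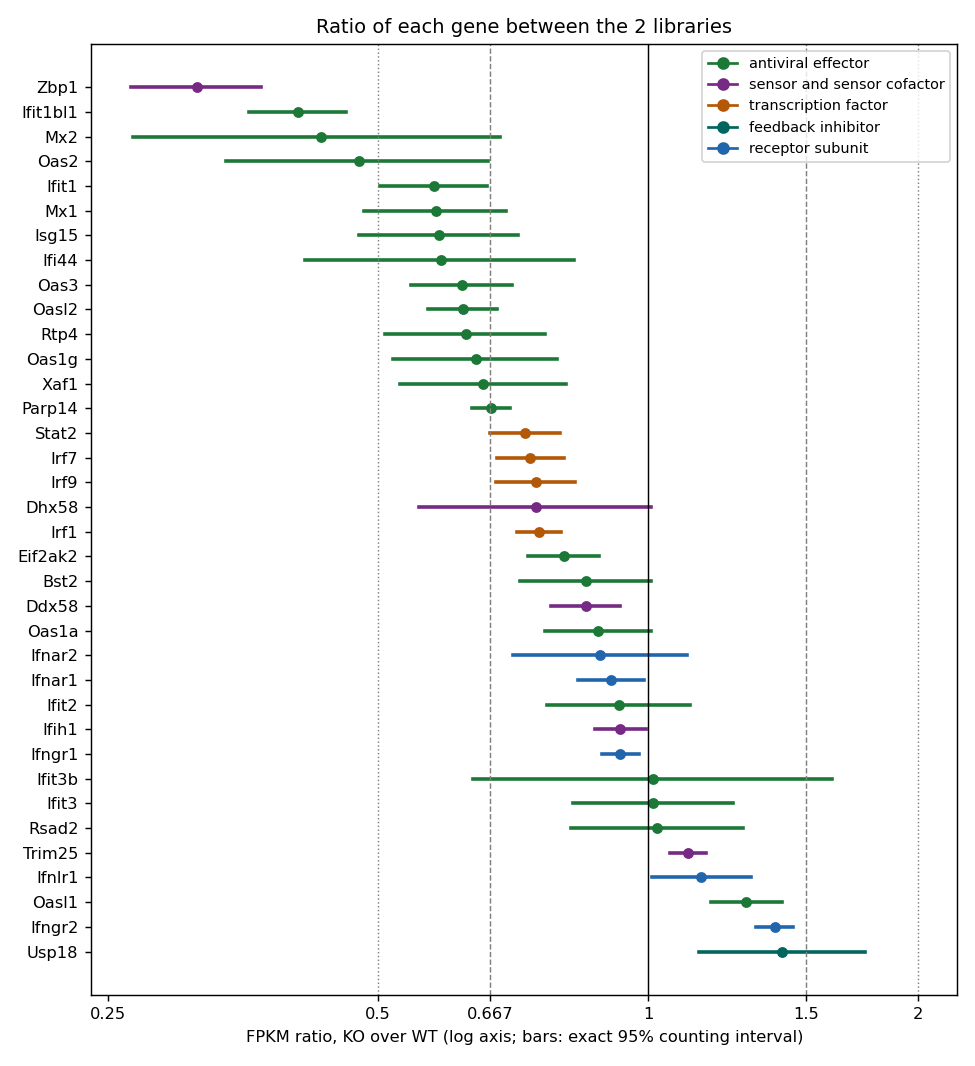
FPKM ratio of KO over WT (log axis) of each gene, without a pseudocount, with exact 95% counting intervals as bars and dashed and dotted lines at 1.5-fold and 2-fold. Intervals lie below 1 for 23 genes, above 1 for 5 and hold 1 for 8. The same count was not made over all genes, so it does not set these genes apart. The intervals do not cover differences between mice.

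Level within the set showed little relation to the ratio. Spearman's rho between log2 mean FPKM and the log2 ratio was 0.10 over the 36 genes, a description across genes that share libraries. The 4 most abundant genes, Ifngr1, Ifngr2, Trim25 and Irf1, held 48.4% of the summed FPKM in the KO library and 40.5% in the WT library. The sum over all 36 genes, 428 FPKM in the KO library and 489.7 FPKM in the WT library, therefore draws much of its value from these 4 genes, of which Irf1 was lower and Ifngr2 and Trim25 were higher in the KO library. Over the effectors alone the sum was 143 FPKM in the KO library and 195 FPKM in the WT library, 1.36-fold lower. For the 30 compared genes other than receptors, the median log2 ratio was -0.40, and 24 lay below 0, where 58.7% of all genes did.

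**Figure D3:**
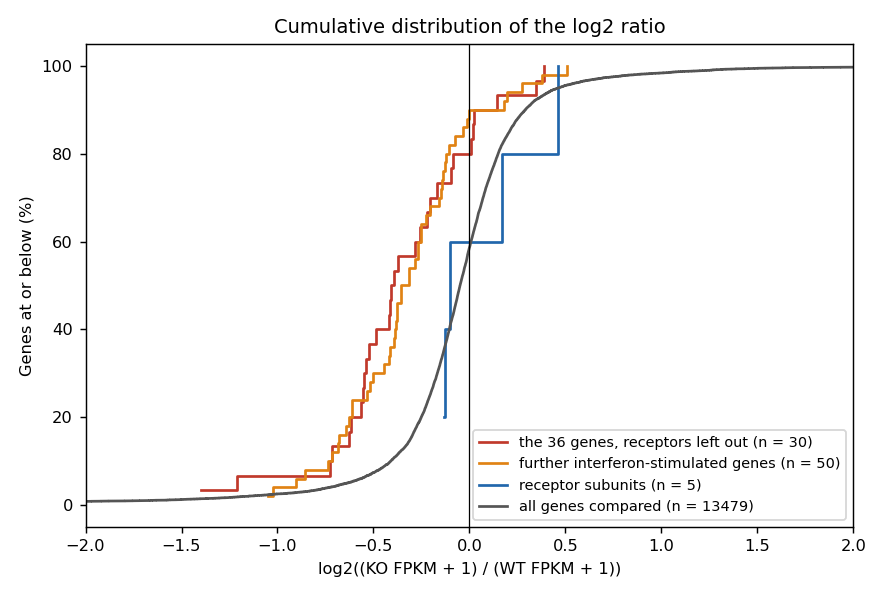
Percentage of genes at or below a log2 ratio (horizontal axis, pseudocount of 1 FPKM) for the genes other than receptors, further interferon-stimulated genes, the receptor subunits and all genes compared. The first 2 curves lie left of the curve of all genes over most of the range, with medians of -0.40 and -0.34 beside -0.05, and the 5 receptor subunits have a median of -0.10.

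Promoter sequences show what the interferon genes share on the DNA. RefSeq promoter windows of the build GRCm38.p6, from 250 bases before to 50 bases after a start site, were matched by symbol for 28 of the 36 genes. Usp18, Oas2, Mx1, Mx2, Rtp4, Zbp1, Dhx58 and Parp14 were not matched. The ISRE core was searched as GAAANNGAAA on both strands, N being any base. It was found in 14 of the 28 genes, or 50%, and in 3.99% of all 27025 genes with a window. The copies Ifit3 and Ifit3b, and Oas1a and Oas1g, share sequence and are not independent cases. The ETS-IRF composite element, to which SPI-B can bind with an IRF partner in immune cells, was searched as GGAANNGAAA. It was found in Ifi44, Stat2 and Trim25, and in 3.16% of all genes with a window, and in Stat2 it overlaps the ISRE core match. The GAS motif TTCNNNGAA was found in 7 of the 28 genes, Irf1 among them, and in 9.55% of all genes with a window, and in Bst2 it overlaps the ISRE core match. A match is a description of letters and not a binding site.

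Among the 28 genes with a window, both lower genes and level ones held an ISRE core match. Whether a match goes with a lower ratio cannot be settled here, because the lower genes Zbp1 and Mx1 had no window. The 14 genes with a match had log2 ratios from -1.21 to 0.02 with a median of -0.25, and 3 of them were 1.5-fold lower. The 14 genes without a match had log2 ratios from -0.62 to 0.46 with a median of -0.13, and 1 was 1.5-fold lower. All 5 receptor subunits are among the genes without a match, so the groups also differ in role. To show matches in lower and level genes, stretches upstream of the start site are given. They are from the lower genes Isg15, Ifit1 and Ifit1bl1 and from Ifit3, Rsad2 and Bst2, which lay within 1.5-fold. They run 5′ to 3′ on the strand of the gene, and capitals mark ISRE core matches on either strand, so that a match on the opposite strand reads TTTCNNTTTC. The lower genes are Isg15 (chr4:156200819-156201068, minus strand), Ifit1 (chr19:34640744-34640870, plus strand, the whole interval between the annotated exons of Ifit1bl2 and Ifit1) and Ifit1bl1 (chr19:34601969-34602218, minus strand).
Isg15: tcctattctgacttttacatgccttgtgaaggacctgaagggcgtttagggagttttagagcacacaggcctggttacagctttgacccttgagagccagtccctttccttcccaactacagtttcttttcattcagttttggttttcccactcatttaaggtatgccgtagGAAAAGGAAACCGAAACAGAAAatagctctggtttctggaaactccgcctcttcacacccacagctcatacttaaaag
Ifit1: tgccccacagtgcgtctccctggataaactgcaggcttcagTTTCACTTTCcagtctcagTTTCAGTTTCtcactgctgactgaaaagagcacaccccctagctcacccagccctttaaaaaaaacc
Ifit1bl1: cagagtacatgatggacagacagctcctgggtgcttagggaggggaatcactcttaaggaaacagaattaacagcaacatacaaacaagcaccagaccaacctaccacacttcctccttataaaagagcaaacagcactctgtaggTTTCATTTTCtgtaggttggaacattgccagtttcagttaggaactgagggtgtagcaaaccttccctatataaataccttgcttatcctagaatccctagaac
The genes within 1.5-fold are Ifit3 (chr19:34583279-34583528, plus strand), Rsad2 (chr12:26456453-26456702, minus strand) and Bst2 (chr8:71537473-71537722, minus strand).
Ifit3: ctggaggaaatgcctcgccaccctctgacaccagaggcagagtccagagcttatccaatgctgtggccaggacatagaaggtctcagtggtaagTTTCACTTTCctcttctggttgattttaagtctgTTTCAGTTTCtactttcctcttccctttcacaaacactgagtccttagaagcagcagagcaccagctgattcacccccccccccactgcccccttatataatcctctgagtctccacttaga
Rsad2: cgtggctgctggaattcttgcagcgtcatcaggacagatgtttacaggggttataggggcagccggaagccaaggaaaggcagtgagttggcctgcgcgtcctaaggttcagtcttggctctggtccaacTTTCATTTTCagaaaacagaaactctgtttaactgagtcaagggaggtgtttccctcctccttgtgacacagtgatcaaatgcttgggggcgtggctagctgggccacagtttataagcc
Bst2: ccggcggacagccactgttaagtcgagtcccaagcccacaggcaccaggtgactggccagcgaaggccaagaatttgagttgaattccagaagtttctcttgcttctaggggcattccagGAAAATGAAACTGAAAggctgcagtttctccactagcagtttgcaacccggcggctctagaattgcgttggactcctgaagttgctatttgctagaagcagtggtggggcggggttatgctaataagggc
Isg15 holds 3 overlapping matches and the largest number of the 6 genes, which begin at positions -78, -72 and -66 from the start site. Ifit1 and Ifit3 hold 2 separate matches each, in the same orientation, yet Ifit1 was 1.73-fold lower in the KO library and the interval of Ifit3 held a ratio of 1. Rsad2 and Ifit1bl1 hold 1 match each in their printed stretch, with the same letters TTTCATTTTC, and Ifit1bl1 was 2.46-fold lower where the interval of Rsad2 held a ratio of 1.

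**Figure D4:**
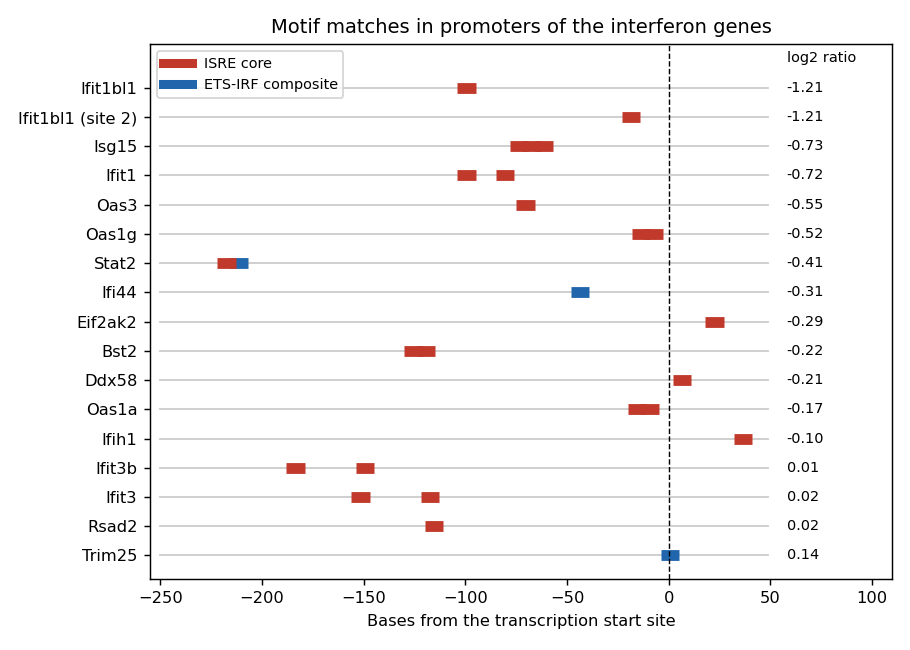
Positions of ISRE core (red) and ETS-IRF composite (blue) matches relative to the transcription start site in the 28 of the 36 genes that had a promoter window, with genes that hold a match shown, ordered by log2 ratio, which is printed at the right. Ifit1bl1 is shown for both of its start sites in the promoter table, and red marks stand beside ratios from -1.21 to 0.02.

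Further interferon-stimulated genes outside the 36 went the same way. This list, too, was chosen with earlier results of these data known, in which an overlapping list of interferon genes was already lower. Its direction is therefore not independent support for that of the 36 genes. All 50 genes of that pathway list were compared, and 45 lay below 0, against 58.7% of all genes. Of the 50, 12 were 1.5-fold lower, against 5.69% of all genes, none was 1.5-fold higher, against 3.56%, and the median was -0.34. Among the 12, Nlrc5, Slfn1 and Sp110 reached 1 FPKM in the WT library only, so the filter kept them through the library where they were higher. The same held for Cxcl10, Phf11d and Ms4a4c among the 45 below 0. Nlrc5, the transactivator of MHC class I genes, had 0.733 FPKM in the KO library and 2.53 FPKM in the WT library, 3.45-fold lower (2.78 to 4.30). Tap1, the peptide transporter for MHC class I, had 5.88 FPKM in the KO library and 13.2 FPKM in the WT library, 2.25-fold lower (2.03 to 2.49). Cxcl9, a chemokine induced mainly by interferon gamma, had 1.67 FPKM in the KO library and 3.996 FPKM in the WT library, 2.39-fold lower (1.86 to 3.10). On the log2 scale Tap1, Nlrc5 and Cxcl9 were the lowest of the list, at -1.05, -1.02 and -0.90. Which interferon, if any, these differences relate to was not tested. Ifitm3, which blocks viral entry at endosomes, had 35.9 FPKM in the KO library and 59.7 FPKM in the WT library. Ly6e, a membrane protein that restricts coronavirus fusion, had 22.3 FPKM in the KO library and 36.5 FPKM in the WT library. The remaining genes past 1.5-fold were Apol9a, Slfn1, Mndal, Shisa5, Sp100, Sp110 and the secreted glycoprotein Lgals3bp, with log2 ratios from -0.86 for Apol9a to -0.61 for Sp110 and Lgals3bp. Mndal overlaps the related gene Ifi203 and Apol9a has a close copy, so their single values are uncertain. The most abundant gene of the list went the other way. Ifi27l2b had 309.9 FPKM in the KO library and 218 FPKM in the WT library, 1.42-fold higher (1.37 to 1.48).

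Upstream of interferon production, 11 of 14 genes of the induction pathway lay below 0, with a median of -0.21, and 1 of 14 was 1.5-fold lower, where 58.7% and 5.69% of all genes were, so the share past 1.5-fold was near that of all genes. That gene was Tmem173, which encodes the DNA-sensing adaptor STING, at 2.63 FPKM in the KO library and 5.73 FPKM in the WT library, 2.18-fold lower (1.72 to 2.77). Among the 11 below 0, Tlr9 reached 1 FPKM in the WT library only, so the filter kept it through that library. The kinase Tbk1, the most abundant gene of that list, had 27.1 FPKM in the KO library and 31.9 FPKM in the WT library. Of the negative regulators, Socs3, which restrains STAT3 signalling, had 9.42 FPKM in the KO library and 38.4 FPKM in the WT library, 4.08-fold lower (3.69 to 4.52). Socs1, which restrains JAK kinases under interferon receptors, had 1.90 FPKM in the KO library and 3.72 FPKM in the WT library, 1.95-fold lower (1.32 to 2.92).

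The 36 genes are expressed in many cell types, and in whole tissue fewer cells of a type cannot be told apart from less RNA per cell. Defining markers of enterocytes were abundant in both libraries, as the tissue label says, with 6 markers summing to 6724 FPKM in the KO library and 6779 FPKM in the WT library. About that sum they varied in direction: Apoa1, the most abundant, had 3436 FPKM in the KO library and 4070 FPKM in the WT library, while Fabp1, a fatty acid binding protein, had 764 FPKM in the KO library and 486 FPKM in the WT library, 1.57-fold higher, and the disaccharidase Sis was 1.39-fold higher. Lymphocyte markers were lower in the KO library in the same direction as the interferon genes. Of all genes compared, 58.7% lay below 0. All 6 B cell markers lay below 0 with a summed level of 9.34 FPKM in the KO library and 24.9 FPKM in the WT library. All 7 T cell and intraepithelial lymphocyte markers lay below 0, with a sum of 30.5 FPKM in the KO library and 69.2 FPKM in the WT library. All 6 plasma cell markers lay below 0, with a sum of 493 FPKM in the KO library and 1972 FPKM in the WT library. Of these lymphocyte markers, Ms4a1, Cr2, Fcer2a, Cd3e, Cd3g and Tnfrsf17 reached 1 FPKM in the WT library only. The filter kept these genes through the library where they were higher, so the counts below 0 are in part fixed by it. The lymphocyte sums differed by 2.66-fold, 2.27-fold and 3.998-fold, more than the effector sum.

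Of the macrophage and dendritic cell markers 5 of 6 lay below 0, where 58.7% of all genes did. These markers summed to 76.7 FPKM in the KO library and 109.6 FPKM in the WT library. Of the plasmacytoid dendritic cell markers, 4 of 5 compared lay below 0, with Ccr9 among the 4 kept through the WT library only. Their sum was higher in the KO library, 161 FPKM against 89.2 FPKM in the WT library, and it is mostly Klk1, a kallikrein that other cells also make, at 142 FPKM in the KO library and 58.1 FPKM in the WT library. Siglech, the most restricted marker of those cells on the list, had 24 reads in the KO library and 37 in the WT library. Tuft cell markers went the other way, with all 4 at least 2-fold higher, where 1.61% of all genes were. Their sum was 19.3 FPKM in the KO library and 3.88 FPKM in the WT library. Among the 4, Pou2f3 and Gnat3 reached 1 FPKM in the KO library only, so the filter kept them through that library. No marker of these lists was at 0 in either library. Smooth muscle and endothelial marker sums were level, at 393 and 18.6 FPKM in the KO library and 379.7 and 18.4 FPKM in the WT library. Spib itself had 0.592 FPKM in the KO library and 4.94 FPKM in the WT library, 8.34-fold lower. The part of these cell markers in the lower interferon genes was not tested.

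**Figure D5:**
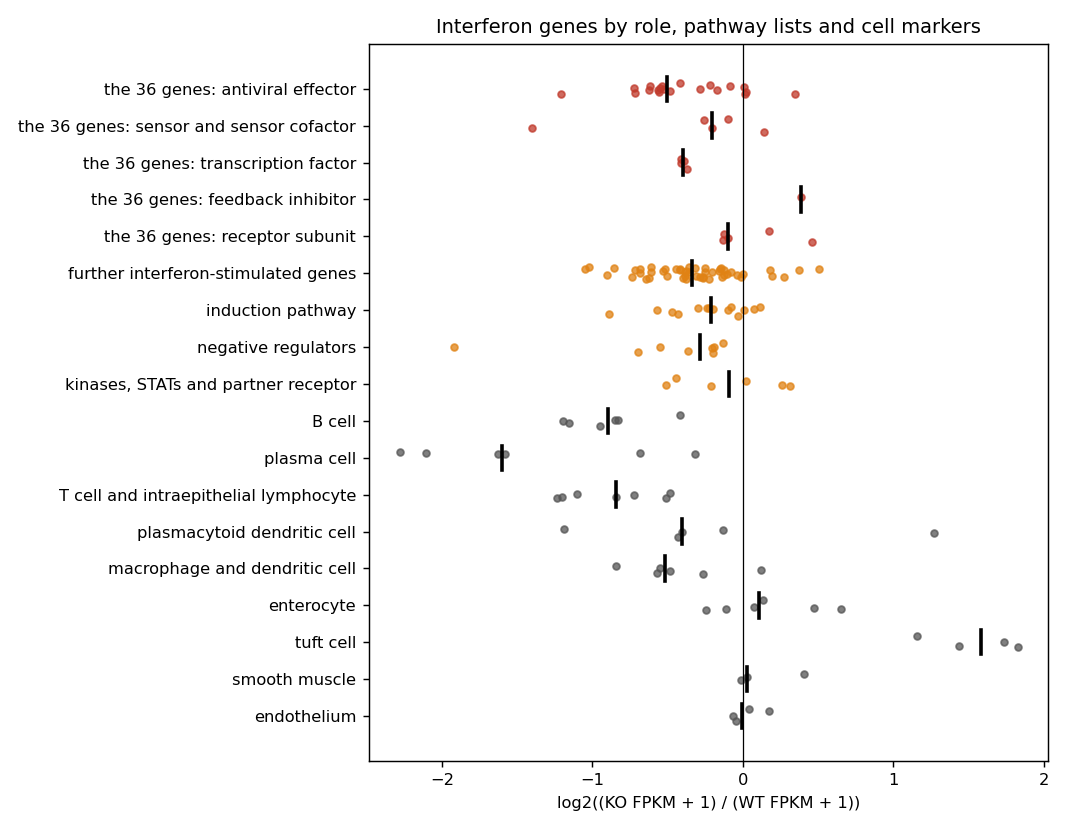
Log2 ratio (pseudocount of 1 FPKM) of each compared gene, for the 36 genes by role (red), the pathway lists (orange) and cell markers (grey), with black bars at list medians. The interferon gene roles other than receptors and Usp18 have medians from -0.51 to -0.21, B cell, plasma cell and T cell markers lie lower, at -0.90, -1.60 and -0.84, and the medians of enterocyte, smooth muscle and endothelial markers are 0.10, 0.03 and -0.003, with enterocyte markers from -0.24 to 0.65.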

How the data were processed

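RNA of small intestine was extracted with TRIzol and its cDNA amplified by SMART-Seq II, per the labels' protocols. The deposited table gives FPKM, which the authors made by dividing reads by gene length and library size, per the file's name and values. Bowtie2 2.2.3, HTSeq 0.6.0 and the build mm10 stand in the submitters' processing notes without role or order. The sources used here do not give annotation, strand setting or filters, so overlapping and antisense genes may share reads. Columns were matched to libraries by title.

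The 36 genes and all lists were chosen with earlier results of these data known, in which an overlapping list of interferon genes was already lower. All genes of the table, 27275, were read, and those with at least 1 FPKM in 1 library compared, with a pseudocount of 1. Read numbers are FPKM times the summed exon length in GENCODE M21 (GRCm38, the same assembly as mm10) over the step of 1 read. They came out whole within 0.01 for 90.7% of values above 0 in the KO library and 90.6% in the WT library, and for 32 of the 36 genes. For the other 4, Ifit1bl1, Mx1, Ifnar1 and Ifngr2, the smallest whole pair was used, so true reads may be more. Intervals are exact Clopper-Pearson at 95% for the share of reads from the KO library. Amplified reads with no molecular identifiers can repeat a molecule, so these intervals cover counting error at most. No test, p-value or SD is given. The text names all 36 genes, genes of the pathway lists past 1.5-fold, the most abundant gene of each such list and Spib. Cell markers are given mainly as sums in place of single genes. Cmpk2, Jak1, Tyk2, Stat3, Il10rb, Uba7, Ube2l6, Herc6, Siglech, Fabp1 and Sis were named after their values were seen. So were the genes named only because they reached 1 FPKM in 1 library. 1 gene of the pathway lists is not reported here. Depth recovery was tested on simulated data. Python 3.11.15, pandas 2.3.3 and SciPy 1.17.1 were used. Other pseudocounts, filters and scalings were tried.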

Additional observations from a re-analysis of the deposited data

How the results depend on the processing

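The median log2 ratio of the genes stayed below 0 under all 8 alternatives tried. It was -0.39 at a pseudocount of 0.1 FPKM and -0.18 at one of 5 FPKM, and between those values under the other alternatives. The count of genes at least 1.5-fold lower, 6 as reported, was 11 at a pseudocount of 0.1, 2 at one of 5 and 12 with each library rescaled to TPM, which also makes the pseudocount smaller against the values. It was 6, 4 or 5 under the other alternatives. The count at least 2-fold lower, 2 as reported, was 0 with a pseudocount of 5 and 3 with 0.1, and 2 under the rest. No gene was 1.5-fold higher under any of them. Rescaling to TPM moved Ifit3 and Ifit3b below 0, and no other gene changed sign under another pseudocount, filter or scaling. Centring on the median of all genes left Ifit1, Ifit1bl1, Isg15 and Zbp1 past 1.5-fold. With a pseudocount of 5, the genes past it were Ifit1bl1 and Zbp1. The pseudocount acts most on low genes by construction. The summed FPKM kept a log2 ratio between -0.22 and -0.15 under each scaling, beside -0.20 as deposited. Leaving out the 5 genes that share at least 10% of their 50-base stretches with another gene, a choice made after seeing the data, gave a median of -0.33. No paired analysis was possible because each genotype has 1 library. With 1 library per genotype, the spread between mice is unknown, and depth limits the low genes besides, the 36 genes having between 28 and 4210 recovered reads in a library.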
